A study of Mus musculus with 4 samples.

Results

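The CART_1 neurons of the mouse hypothalamus were the 1629 nuclei that the study's deposited annotation placed in the main neuronal cluster, Neurons_1, under the sub-cluster name CART Neurons_1, out of 35756 Neurons_1 nuclei and 56386 annotated nuclei in all. Membership was taken from that annotation alone, and no level measured here was used to choose a nucleus. Hypothalami came from 12 adult male mice of the C57/BL6NCr background, either wild type (WT) or TRα1+m, that is, heterozygous for the R384C mutation in thyroid hormone receptor α1 and carrying the mutant receptor in every cell that expresses the gene. Each library was made from the nuclei of 3 mice of the same genotype combined, with 2 libraries per genotype, 1 in each of 2 experimental repeats. No value therefore belongs to a single animal, and each genotype is represented by n = 2 pools. The p-values below compare these pools, and those of edgeR and DESeq2 lean also on a spread pooled across the genes or sub-clusters tested. The mutation is a single amino acid change that leaves the transcript in place, so the level of the gene does not identify the genotype. Thra, which encodes the receptor, stood at 97.3 and 117 CPM (UMIs of the gene per 1000000 UMIs of the library's CART_1 nuclei, where a UMI marks 1 captured transcript) in WT and at 93.6 and 70.4 CPM in TRα1+m CART_1 nuclei.

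CART, the product of Cartpt, is a secreted neuropeptide known for restraining food intake, and it is made by several unrelated groups of hypothalamic neurons, including the arcuate neurons that also make POMC. Thyroid hormone receptors are nuclear receptors that activate genes when hormone is bound and repress them in its absence, and the R384C receptor binds hormone poorly and dampens the signal of the normal copy. Metabotropic glutamate receptors, which recur below, are G protein-coupled receptors. Group III receptors, encoded by Grm4, Grm6, Grm7 and Grm8, mostly sit at presynaptic terminals and reduce transmitter release.

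The 4 libraries gave 423 and 479 WT and 380 and 347 TRα1+m CART_1 nuclei in repeats 1 and 2, with 1696297, 2523399, 1441701 and 1690587 UMIs (unique molecular identifiers). The median nucleus held 3640, 4977, 3565 and 4736 UMIs in the same order, so repeat 2 was the deeper repeat in both genotypes. No barcode was shared between libraries among these nuclei, whereas 44 to 64 were shared by pairs of libraries over all annotated nuclei. CART_1 neurons made up 4.42% and 5.47% of Neurons_1 nuclei in WT and 3.58% and 5.08% in TRα1+m, or 4.95% ± 0.744 against 4.33% ± 1.07 (SD, n = 2 each). The ranges overlapped, and neither the exact permutation test (two-sided p = 0.667, with 0.33 the smallest p that 2 against 2 allows) nor edgeR's quasi-likelihood test over the neuronal sub-clusters (log2 fold change -0.19, SE 0.391, adjusted p = 0.992) separated the genotypes. The share is one of nuclei recovered, not of cells present in the tissue.

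Cartpt, on chromosome 13 (GRCm38, 99898489 to 99901091, minus strand), was only a moderate mark of these neurons. Summed over the CART_1 nuclei it stood at 154 and 596 CPM in WT repeats 1 and 2 and at 137 and 227 CPM in TRα1+m repeats 1 and 2, against 67.7, 221, 77.7 and 141 CPM in the other Neurons_1 nuclei of the same libraries. The CART_1 level was thus 1.61 to 2.69 times that of the other neurons in every library, but WT repeat 2 stood above the other 3 libraries in both populations. By its mean, CART_1 ranked number 3 of the 20 sub-clusters with enough nuclei to compare, at 279 CPM ± 215 (SD over 4 libraries), behind POMC/CART neurons at 496 CPM and melanin-concentrating hormone neurons at 420 CPM. The order differed between libraries. In WT repeat 1 CART_1 stood above melanin-concentrating hormone neurons (133 CPM). In TRα1+m, Somatostatin+ neurons (149 CPM) and microglia (140 CPM) also stood above CART_1 in repeat 1, and Glutamatergic Neurons_1 (265 CPM) did in repeat 2.

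A Cartpt UMI was present in 46.1%, 84.3%, 36.8% and 53.3% of CART_1 nuclei in WT repeats 1 and 2 and TRα1+m repeats 1 and 2. Cartpt UMIs were also found in oligodendrocytes, a glial type that should lack the peptide. They were seen in 18.0%, 15.5%, 16.4% and 6.65% of those nuclei, at a median depth of 1493 to 1812 UMIs. These shares were used as a background, and their source, such as free RNA, was not tested. After each nucleus was thinned to 1500 UMIs, leaving out 3 to 5 shallower CART_1 nuclei and 342 to 833 oligodendrocytes per library, the shares were 22.4%, 51.9%, 17.8% and 28.7% in CART_1 neurons and 16.2%, 12.05%, 14.3% and 5.75% in oligodendrocytes. In repeat 2 the neurons stood well above the glia. In repeat 1 their shares were higher than those of the glia by less. There the exact binomial intervals of both populations overlapped in each genotype (18.5% to 26.7% against 13.7% to 18.9% in WT). Overlap of intervals does not decide whether shares differ, and the difference from background was not tested. All intervals given here are 95% Clopper-Pearson intervals and cover counting error only. Nuclei with 5 or more Cartpt UMIs numbered 0 and 119 in WT and 0 and 13 in TRα1+m, all of them in repeat 2.

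**Figure D1:**
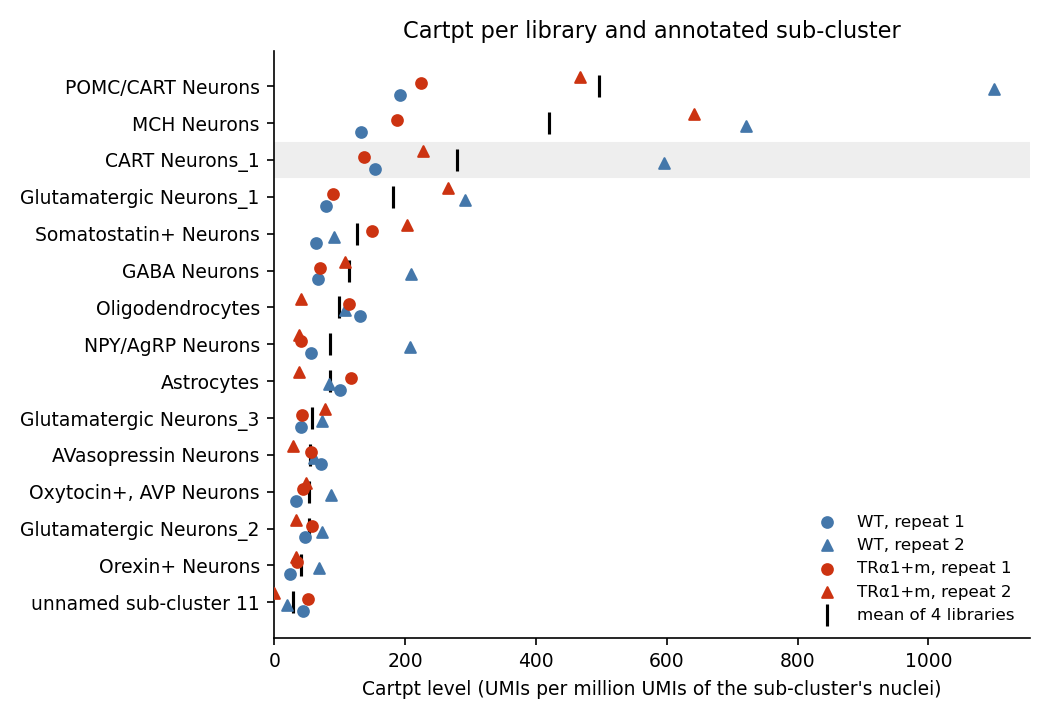
Cartpt level in CPM (linear axis) in the larger neuronal sub-clusters and in oligodendrocytes and astrocytes, ordered by mean (bar), with 1 point per library coloured by genotype and shaped by repeat. CART_1 neurons rank number 3 by mean, an order that not every library keeps, and the WT repeat 2 library lies highest in them at 596 CPM.

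Other markers set these nuclei apart more sharply than Cartpt. Slc17a6, the vesicular glutamate transporter VGLUT2, stood at 284 and 442 CPM in WT and 278 and 478 CPM in TRα1+m, 2.46 to 3.02 times its level in other Neurons_1 nuclei and the highest of the 20 sub-clusters. The GABAergic genes lay at the opposite end. Slc32a1, the vesicular GABA transporter, was at 20.6, 12.7, 13.9 and 11.8 CPM against a mean of 79.2 CPM in other neurons, and Gad2, a GABA-synthesizing enzyme, was at 28.4 to 38.1 CPM against 153 CPM. A Slc32a1 UMI was found in 8.27%, 6.26%, 5.26% and 5.19% of CART_1 nuclei and in 7.80%, 5.59%, 7.36% and 4.46% of the shallower oligodendrocytes. Thinned to 1500 UMIs, the shares were 4.30%, 2.10%, 1.86% and 2.05% in CART_1 nuclei and 6.93%, 4.46%, 6.23% and 3.65% in oligodendrocytes, so CART_1 neurons were not above the glial background in any library. By the transmitter genes, CART_1 neurons were glutamatergic in both genotypes. Across 8054 genes, their mean log profile was most like that of Glutamatergic Neurons_1 (Pearson r = 0.914), followed by GABA neurons (r = 0.900), a description over genes that are not independent and that all sub-clusters measured in the same 4 libraries.

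The genes that led CART_1 neurons were chosen by the lowest of the 4 within-library ratios over the other Neurons_1 nuclei, among 7137 genes with a mean of at least 20 CPM. They describe the cluster and carry no test, since the cluster was itself built from expression. Myo5b, an unconventional myosin that carries recycling endosomes, came first, at 264, 285, 264 and 348 CPM against 5.79 to 9.08 CPM in the other neurons. Its UMIs were seen in 53.4%, 66.0%, 52.9% and 69.5% of CART_1 nuclei, and the next sub-cluster, Somatostatin+ neurons, held 61.9 CPM. The noncoding gene B230323A14Rik followed at 592 CPM ± 25.5 against 20.4 CPM. Mamdc2, Cpne9 (a calcium-dependent membrane-binding copine) and Mypn (a sarcomeric protein gene) completed the first 5, with means of 158, 225 and 45.7 CPM against 8.81, 13.2 and 1.45 CPM.

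Receptor and signalling genes were among the 20 leaders. Drd3, the dopamine D3 receptor, was at 40.7, 45.6, 33.3 and 40.2 CPM against a mean of 3.20 CPM, and Grm2, a presynaptic group II metabotropic glutamate receptor, at 34.8, 73.3, 33.3 and 58.0 CPM against 3.65 CPM. Dgkb, a diacylglycerol kinase, reached 7390 CPM against 1001 CPM. Slitrk6, a synaptic adhesion protein, Col19a1, a collagen, and Adamtsl1, a secreted matrix protein, were also among them. CART_1 neurons held the highest level of all 20 sub-clusters for 17 of the 20 genes. The exceptions were Mamdc2, higher in tanycytes (383 CPM), Serping1, higher in microglia (68.3 CPM), and Tmem144, higher in oligodendrocytes (55.5 CPM).

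**Figure D2:**
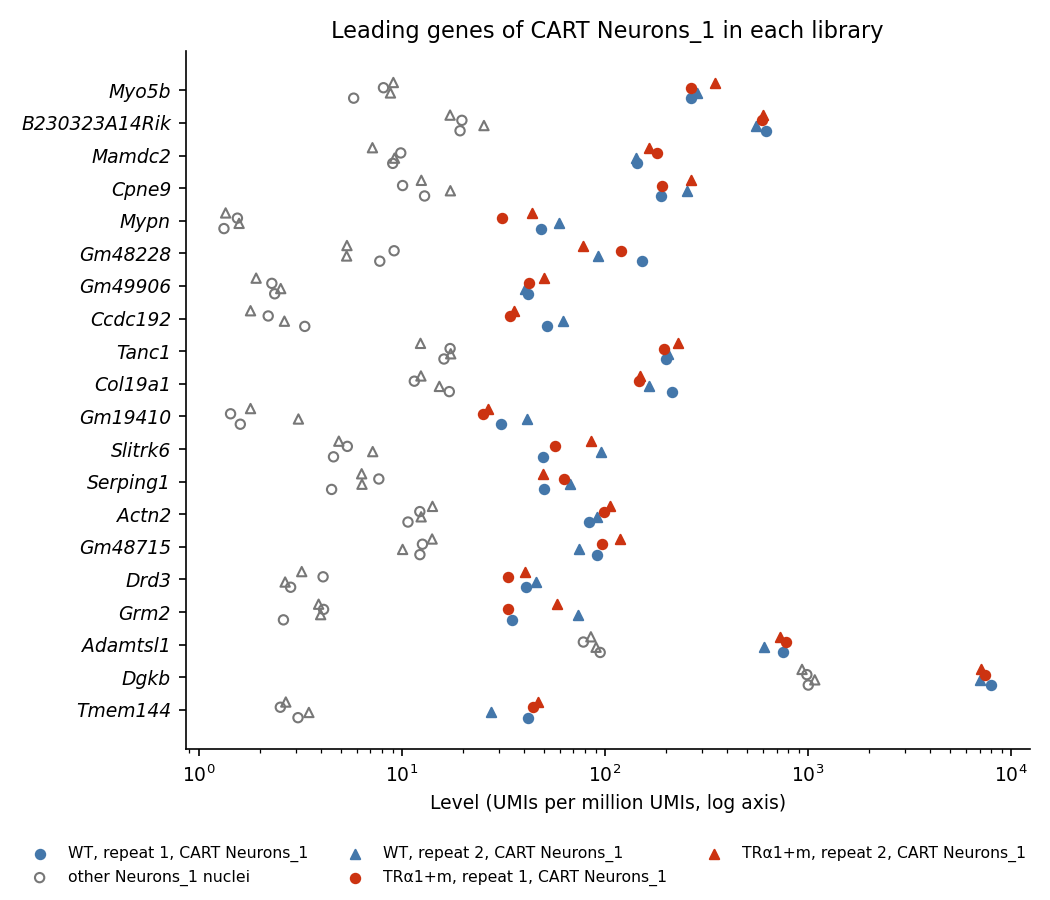
CPM (log axis) of the 20 leading genes of CART_1 neurons, 1 row per gene, with the CART_1 nuclei (filled) and the other Neurons_1 nuclei (open) of each of the 4 libraries as points. In each row every CART_1 point lies to the right of every point of the other neurons, from Myo5b (290 against 7.94 CPM on average) to Tmem144 (40.1 against 2.94 CPM).

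Of 72 listed regional factors, 8 were at least 2 times as high in CART_1 neurons as in other Neurons_1 nuclei in every library, among them Foxb1, Lhx1, Sim1, Nkx2-1, Onecut2 and Zfhx4, and 18 were at or below 0.5 times. Over the 11555 genes with enough counts to be tested for genotype, 245 (2.12%) and 328 (2.84%) met these limits, and the lists also hold genes too sparse to be tested. Foxb1 and Lhx1 are known from development of the mammillary region, and Sim1 from the paraventricular, supraoptic and mammillary nuclei. Foxb1 stood at 22.4, 39.6, 16.0 and 40.8 CPM, against a mean of 2.57 CPM in other neurons. Lhx1 was at 87.2, 37.3, 69.4 and 42.0 CPM, second only to vasopressin neurons (62.1 CPM on average), and was higher in both repeat 1 libraries. Sim1 did not set CART_1 neurons apart from every other group. It averaged 197 CPM in them, below Oxytocin+, AVP neurons (585 CPM) and Glutamatergic Neurons_1 (204 CPM). Among the low factors, Foxp2 was at 8.79 CPM against 162 CPM, and Ebf1, Isl1 and Meis2 were low as well. The genotypes overlapped for Foxb1 and Lhx1.

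Of 38 listed neuropeptide genes, Adcyap1 and Cck were at least 2 times as high as in the other neurons in every library. This limit was met by 2.12% of all tested genes. Adcyap1, the precursor of PACAP, was at 160, 352, 155 and 415 CPM (4.15 to 5.27 times the other neurons) and Cck, cholecystokinin, at 56.0, 280, 90.9 and 367 CPM (2.77 to 8.37 times). Both were low in repeat 1 and high in repeat 2 of each genotype. On average Adcyap1 was highest in CART_1 neurons of the 20 sub-clusters. Cck averaged 198 CPM in them and 216 CPM in microglia, and the source of Cck in microglia was not tested. Nts, neurotensin, averaged 131 CPM in CART_1 neurons and was highest there of all sub-clusters, but mostly in a subset described below. Gpr83, a G protein-coupled receptor reported to affect ghrelin receptor signalling, was at 27.1 to 71.0 CPM against 9.05 CPM. It was the only 1 of 36 listed appetite and hormone receptors raised at least 2-fold in all libraries, beside 2.12% of all tested genes. Of those receptors 11 were at or below 0.5 times in every library, beside 2.84% of all tested genes. Among them were Esr1, the estrogen receptor α (4.16 to 6.51 CPM against 43.0 CPM), Prlr, Htr2c, Calcr and Ghr.

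Of the listed ionotropic and GABA-B receptor genes many were low, although the 37 genes together summed to 13395 to 14068 CPM in CART_1 neurons and 17407 to 18325 CPM in the other neurons. None of the 37 was at least 2 times as high as in the other neurons in every library, beside 2.12% of all tested genes. At or below 0.5 times were 15, beside 2.84% of all tested genes. They included the AMPA receptor subunits Gria1, Gria3 and Gria4 and the glycine receptor subunits Glra1, Glra2 and Glra3. Gabrg3, a GABA-A receptor subunit, had the lowest value of the highest within-library ratio among genes above 100 CPM in the other neurons, at 69.6, 33.3, 81.8 and 20.7 CPM against 1181 CPM, 23.0-fold lower on average. Galnt18 was 23.6-fold lower on average. Of the 8 metabotropic glutamate receptors, 4 were raised at least 2-fold in every library, beside 2.12% of all tested genes. Grm2 and Grm4 were among them, and Grm5 was reduced (628 against 1479 CPM). Grm8 behaved differently again, and differed by genotype.

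Between genotypes, Grm8 was the single gene that passed the test across the transcriptome. Grm8, on chromosome 6 (GRCm38, 27275119 to 28135178, minus strand), was counted at 374 and 673 UMIs in WT and at 80 and 96 UMIs in TRα1+m. These counts gave 220 and 267 CPM in WT, a mean of 244 CPM ± 32.7, and 55.5 and 56.8 CPM in TRα1+m, a mean of 56.1 CPM ± 0.916 (SD, n = 2 each). Both mutant libraries lay far below both WT libraries, in repeat 1 and in repeat 2 alike. The log2 fold change was -2.16 (SE 0.175), with an adjusted p of 0.0409 by edgeR's quasi-likelihood test over 11555 genes and 2.04e-07 by DESeq2. That 1 lower gene was 0.00865% of those tested, no gene was higher, and 233 genes (2.02%) had an unadjusted p under 0.05. Without TRα1+m replicate 1, Grm8 kept its fold change (-2.17) and had an adjusted p of 0.176 by edgeR, with 1 mutant library left.

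Grm8 was not lower in TRα1+m in the other neurons summed. It was at 497 and 520 CPM in WT and 512 and 516 CPM in TRα1+m in the other Neurons_1 nuclei. In GABA neurons it was at 444, 440, 461 and 446 CPM, and in Glutamatergic Neurons_1 at 525, 542, 507 and 512 CPM. In some smaller sub-clusters both mutant libraries lay above both WT libraries, as in Somatostatin+ neurons (812 and 838 against 1044 and 941 CPM), NPY/AgRP neurons (313 and 401 against 545 and 481 CPM), Orexin+ neurons (468 and 640 against 884 and 696 CPM) and vasopressin neurons (110 and 64.0 against 134 and 149 CPM), and these differences were not tested. WT CART_1 neurons held less Grm8 than GABA neurons and Glutamatergic Neurons_1 and more than vasopressin neurons, and mutant CART_1 neurons lay between oligodendrocytes (73.5 and 65.7 CPM in the same libraries) and astrocytes (38.3 and 28.3 CPM). The genotype effect in CART_1 minus that in the other Neurons_1 nuclei, tested as an interaction with a term for each library, was -2.15 on the log2 scale (SE 0.121, adjusted p = 2.49e-65 by edgeR over 18981 genes). The size of that p rests on a spread that edgeR pools across genes, not on the number of pools.

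**Figure D3:**
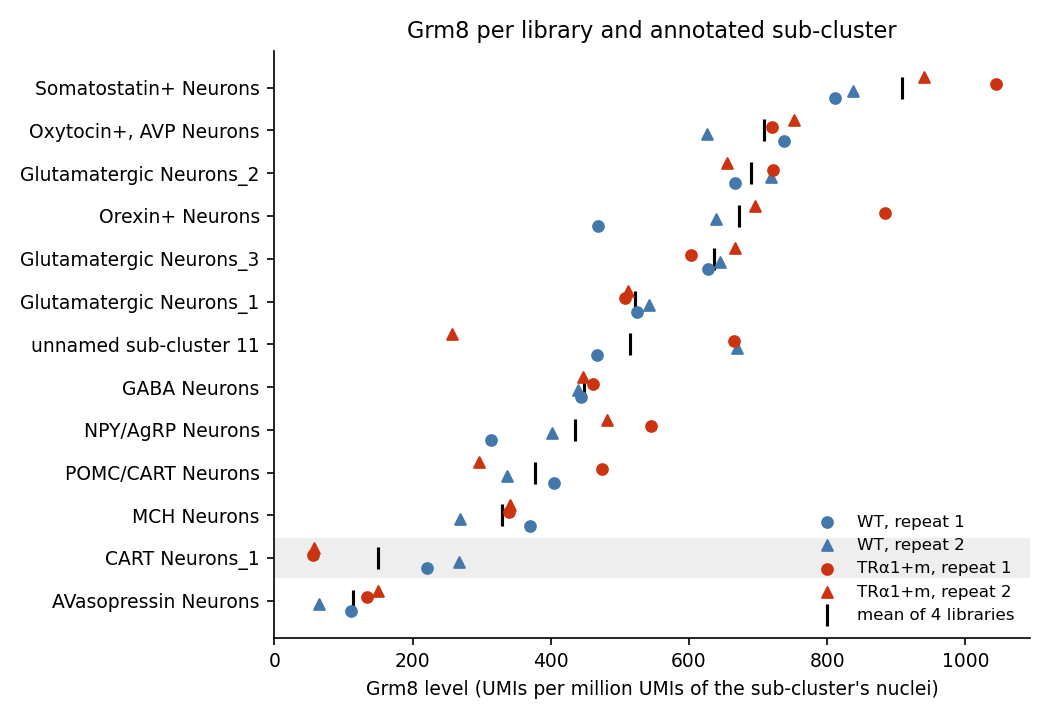
Grm8 level in CPM (linear axis) in the larger neuronal sub-clusters, ordered by mean (bar), with 1 point per library coloured by genotype and shaped by repeat. In CART_1 neurons the WT libraries sit at 220 and 267 CPM and the TRα1+m libraries at 55.5 and 56.8 CPM, while the 4 points of GABA neurons lie between 440 and 461 CPM.

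The same split was seen nucleus by nucleus. A Grm8 UMI was found in 140 of 423 and 225 of 479 WT nuclei (33.1% and 47.0%) and in 50 of 380 and 53 of 347 mutant nuclei (13.2% and 15.3%). Thinned to 1500 UMIs per nucleus, the shares were 22.0% (18.1% to 26.2%) and 26.1% (22.2% to 30.2%) in WT and 6.38% (4.13% to 9.35%) and 6.73% (4.31% to 9.92%) in TRα1+m. At that depth oligodendrocytes of the same libraries gave 5.45%, 5.98%, 9.57% and 7.52% and astrocytes 3.62%, 3.23%, 4.97% and 3.65%. WT neurons were above both glial types in both repeats. Mutant neurons were at or below oligodendrocytes and above astrocytes, with intervals that overlapped those of astrocytes (3.93% to 6.19% and 2.72% to 4.78% in the mutant libraries). Nuclei with 5 or more Grm8 UMIs numbered 25 and 44 in WT and 1 and 3 in TRα1+m, and the highest single nucleus held 10, 19, 5 and 6 UMIs in WT repeats 1 and 2 and TRα1+m repeats 1 and 2.

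Each repeat held 1 pool of each genotype, and far more genes differed between repeats than between genotypes in CART_1 neurons. Adjusted for genotype, 703 genes (6.08%) were higher and 706 (6.11%) lower in repeat 2 by edgeR. Atp6v0c, a subunit of the vacuolar proton pump, was at 386 and 436 CPM in repeat 1 and 1167 and 1317 CPM in repeat 2 (log2 fold change 1.53), and Cck (2.09), Bsg, Nsg1 and Ndfip1 were also higher in repeat 2. Avp, Rps27, Gm32509, Ptgds and P2ry14 were the 5 lower genes with the smallest p. In the genotype comparison, with the repeat as a replicate block the number of called genes went from 1 to 45 (0.389%), of which 10 were higher (0.0865% of those tested) and 35 lower (0.303%) in TRα1+m. All 45 had the same direction in both repeats, which a fit on 2 pairs selects for, as had 6263 of the 11555 tested genes. With 2 pairs, this fit leaves 1 residual degree of freedom per gene and leans on the pooled spread, and DESeq2 with the same block called 2 genes. The genes named next passed with the block by edgeR and not without it, unless said otherwise.

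**Figure D4:**
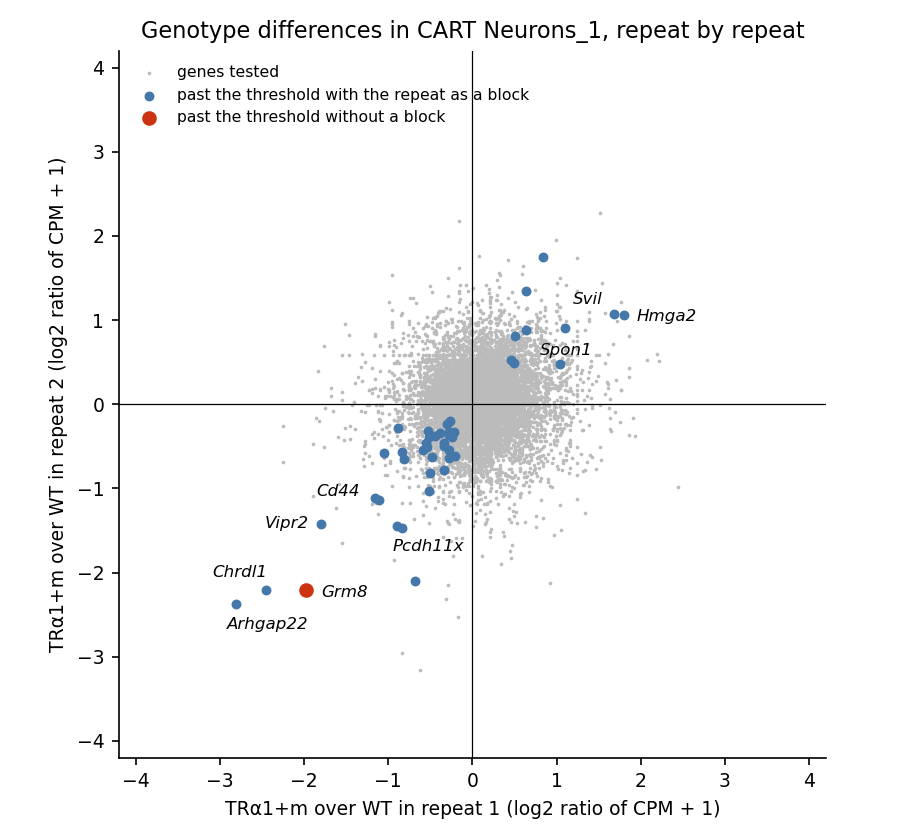
Log2 ratio of TRα1+m over WT, taken on CPM plus 1, in CART_1 neurons in repeat 1 (x axis) and repeat 2 (y axis), 1 point per tested gene, with the 45 genes called with the repeat as a block marked. All 45 lie in the lower left or upper right quadrant, and Grm8, which passed without the block too, lies at about -2 on both axes.

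Pcdh11x, a protocadherin on the X chromosome (GRCm38, 120290259 to 120910619, plus strand), was at 279 and 311 CPM in WT and 150 and 114 CPM in TRα1+m (log2 fold change with the block -1.23, SE 0.126, adjusted p = 1.58e-06). Pcdh15, a protocadherin of the sensory hair cell tip link, was at 4116 and 3759 CPM in WT and 2813 and 2732 CPM in TRα1+m (adjusted p = 1.44e-05). Cadm2, a synaptic immunoglobulin adhesion molecule, was at 4907, 5099, 3607 and 3919 CPM, and Cd44, the hyaluronan receptor, at 59.5, 80.4, 27.1 and 36.1 CPM. In each of these 4 genes the mutant libraries lay below both WT libraries. Ncam2 was lower as well, whereas Cadm1, at 712 and 625 CPM in WT and 1000.2 and 880 CPM in TRα1+m, was higher. Of 36 tested genes in the synaptic adhesion list, 1 was called, beside 0.389% of all tested genes. It was Cntnap5c, which was higher (564 and 435 against 775 and 629 CPM).

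The listed ion channel genes that were called were all lower. Kcnip4, an accessory protein of A-type potassium channels, fell by 0.28 on the log2 scale with the block. Of 31 tested pacemaker and potassium channel genes 2 were called, both lower, and the median log2 fold change of the list was -0.0011 against -0.0029 over all tested genes. Of 23 calcium and sodium channel genes 3 were called, all lower, beside 0.303% of all tested genes called lower, and the list's median log2 fold change was 0.03. They were Cacna1d, the pore of the L-type channel Cav1.3 (472, 386, 255 and 318 CPM), Cacna2d3 (94.3, 107, 65.9 and 52.1 CPM) and Cacnb2 (648, 600, 513 and 438 CPM). Asic2, a proton-gated cation channel outside both lists, was also lower.

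Vipr2, the VPAC2 receptor for VIP and PACAP, was at 26.5 and 30.1 CPM in WT and 6.94 and 10.6 CPM in TRα1+m (log2 fold change with the block -1.71, SE 0.294, adjusted p = 2.06e-03). Rgs7bp, which anchors regulators of G protein signalling at the membrane, was at 283, 302, 161 and 192 CPM. Rgs7, a partner of that anchor, and Rgs10 were lower too. For Vipr2 and Rgs7bp the genotypes did not overlap. Arhgap22, a Rac GTPase-activating protein, was at 20.6 and 34.9 CPM in WT and 2.08 and 5.92 CPM in TRα1+m (35, 88, 3 and 10 UMIs). In the other Neurons_1 nuclei Arhgap22 averaged 12.9 CPM in WT and 4.91 CPM in TRα1+m, and its interaction was not significant (adjusted p = 0.147 by edgeR).

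Spon1, an extracellular matrix protein of the spondin family, was the higher gene with the smallest p, at 48.3 and 61.8 CPM in WT and 105 and 117 CPM in TRα1+m (log2 fold change with the block 0.95, SE 0.156, adjusted p = 1.02e-03). Nts was higher within both repeats, from 51.9 to 74.2 CPM in repeat 1 and from 143 to 253 CPM in repeat 2, but its repeats differed by more than its genotypes. It was the 1 called gene of 28 tested neuropeptide genes, beside 0.389% of all tested genes. AC149090.1, at 490, 308, 1009 and 430 CPM, was higher within both repeats, with overlapping genotypes, and averaged 363 CPM in WT and 781 CPM in TRα1+m in the other Neurons_1 nuclei. Ltbp1, Baiap3, Svil, Hmga2 and 4930578M01Rik were the remaining higher genes. The remaining lower genes included Brinp2, Phlpp1, the presynaptic active zone gene Erc2, Plxna2, Man2a1, Magi2, Dlc1, Thsd7b, Cox5a and Chrdl1, the last counted at 14 and 16 UMIs in WT and at 1 UMI in each mutant library. Lrrtm4 and Oxt, mentioned for neurons in the study's text, were not called. Lrrtm4 was at 5198, 5757, 5584 and 5844 CPM, and Oxt, a peptide of other neurons, at 299, 84.4, 246 and 30.8 CPM, with repeat 1 the higher in both genotypes.

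Mitochondrial transcripts moved with library as well as genotype. Of 13 mitochondrially encoded genes, mt-Atp6, mt-Nd4 and mt-Nd2 were lower in TRα1+m with the block, beside 0.303% of all tested genes. The list's median log2 fold change was -0.52 against -0.0029 over all tested genes. Their sum was 9718 and 13884 CPM in WT and 8702 and 7813 CPM in TRα1+m CART_1 neurons, and 9372, 11552, 8294 and 7623 CPM in the other Neurons_1 nuclei, so the same order of libraries was seen outside CART_1. mt-Co3, mentioned for neurons in the study's text, was at 2666, 3730, 2477 and 1935 CPM (adjusted p = 0.812 by edgeR with the block). Mitochondrial transcripts in nuclei are carried over from the cytoplasm, and the part of this carry-over in the other results was not tested.

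The thyroid hormone genes gave no call by edgeR with or without the block. Of the signalling list, 13 of 19 genes were tested and 0 were called (median log2 fold change -0.10). Thra averaged 94.5 CPM and was close to its 96.3 CPM in other neurons, while Thrb, the second hormone receptor, was at 62.5, 49.9, 52.0 and 37.3 CPM against 232 CPM. Of the response list, 12 of 15 genes were tested and 0 were called (median log2 fold change -0.22). Klf9, a direct target of the hormone receptor in brain, was at 49.5 and 57.9 CPM in WT and 32.6 and 32.5 CPM in TRα1+m, with no overlap. Its unadjusted p by edgeR was 0.0114 without the block, and with the block its adjusted p was 0.0817. Hr, another direct target, was at 5.90 and 8.32 CPM in WT and 1.39 and 1.77 CPM in TRα1+m. The filter on low counts left it out of the main genotype test. In the interaction with the other Neurons_1 nuclei all 15 genes of the response list were tested and 0 were called. Bdnf, a neurotrophin, was raised in CART_1 neurons relative to the other neurons (70.7, 105, 55.5 and 101 CPM against 23.9 CPM), with overlapping genotypes.

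Among the remaining lists, 0 of 28 tested regional transcription factors, 0 of 32 ionotropic receptors, 0 of 7 transmitter genes, 0 of 21 appetite and hormone receptors and 0 of 6 immediate early genes were called by edgeR, with or without the block, with medians between -0.16 and 0.21 on the log2 scale. Of the 7 tested metabotropic glutamate receptors, Grm8 alone was called. Cartpt had a log2 fold change of -1.08 (SE 0.657, adjusted p = 1.00 by edgeR) that rested on the WT repeat 2 library. Without that library it was 0.15.

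Markers of other cell types were present at low levels in the CART_1 sums. None of the 4 tested oligodendrocyte, 5 astrocyte, 5 microglial and 2 tanycyte markers was called between genotypes by edgeR, with or without the block. The 5 oligodendrocyte markers summed to 470, 440, 560 and 405 CPM (Mbp the most abundant) and the 5 astrocyte markers to 332, 342, 446 and 244 CPM (Slc1a2 the most abundant). The 5 microglial markers summed to 91.4, 104, 144 and 114 CPM and the 4 tanycyte and ependymal markers to 205, 206, 311 and 199 CPM (Nnat). TRα1+m repeat 1 was the highest library for each of these 4 sums. For the microglial markers both mutant libraries also lay above both WT libraries, with a list median log2 fold change of 0.56. In the other Neurons_1 nuclei the oligodendrocyte markers summed to 369 to 520 CPM and the astrocyte markers to 190 to 417 CPM. There the microglial markers summed to 91.1 to 110 CPM and the tanycyte markers to 312 to 425 CPM. Markers of other peptide neurons, of which 0 of 9 tested were called, summed to 1135, 672, 1160 and 825 CPM (Pmch the most abundant). Endothelial and mural markers summed to 7.66, 9.11, 21.5 and 12.4 CPM, vascular leptomeningeal markers to 4.13, 4.36, 10.4 and 6.51 CPM, and oligodendrocyte precursor markers to 11.8, 13.5, 13.2 and 8.87 CPM. The pituitary list had 2 of 3 genes at 0, and Cga reached 18.2 CPM in WT repeat 2 alone. The part of free RNA in the genotype results was not tested.

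How far these differences belonged to CART_1 neurons was asked directly by the interaction with the other Neurons_1 nuclei. Of 18981 genes, 20 (0.105%) had a more positive and 19 (0.1%) a more negative genotype effect in CART_1 neurons by edgeR, and 15 of the 39 were also among the 45 genes called with the block. With the repeat as a block this interaction gave 62 genes (0.327%), 32 more positive (0.169%) and 30 more negative (0.158%). After Grm8, the smallest p-values were those of Pcdh11x (-1.02), Pcdh15 (-0.52), Spon1 (0.87) and Erbb4 (0.63). Spon1 had an adjusted p of 0.109 by edgeR without TRα1+m replicate 2. In other neurons Pcdh15 averaged 1553 CPM in WT and 1558 CPM in TRα1+m, and Spon1 79.3 and 85.8 CPM. Vipr2 (-1.48, adjusted p = 4.87e-03) passed as well. Cadm2 did not (-0.15, adjusted p = 0.962), and it averaged 2021 CPM in WT and 1667 CPM in TRα1+m in the other neurons. Cd44 was at 3.63 to 5.22 CPM in the other Neurons_1 nuclei summed and averaged 13.97 CPM in POMC/CART neurons, the next neuronal sub-cluster, and its interaction missed the threshold (-0.87, adjusted p = 0.0887).

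The 1629 nuclei were heterogeneous, and were clustered again leaving out 95 genes, which were those called for genotype or for the interaction and those encoded by mitochondria. The 4 sub-groups that resulted are named by their leading genes, which are descriptions and not tests. A Zmat4/Fign sub-group held 531 nuclei and led with Zmat4 (268 against 18.6 CPM in the other CART_1 nuclei), Fign, Col19a1 and Gldn. A Gm48228/Tafa2 sub-group of 470 nuclei led with Gm48228, Tafa2, Rbms3 (1213 against 277 CPM) and the transcription factor Onecut2 (291 against 65.4 CPM). A Col25a1/Kirrel3 sub-group of 396 nuclei led with Col25a1 (677 against 70.1 CPM), the adhesion gene Kirrel3, Nxph1, Hmcn1 and Nts. A Chrm3/L3mbtl4 sub-group of 232 nuclei led with Chrm3, the M3 muscarinic receptor (1400 against 92.1 CPM), L3mbtl4, 9530026P05Rik and Slit3.

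All 4 sub-groups were found in all 4 libraries. The Zmat4/Fign sub-group made up 38.3% and 29.6% of WT and 32.6% and 29.7% of TRα1+m CART_1 nuclei, the Gm48228/Tafa2 sub-group 30.7%, 28.0%, 26.8% and 29.97%, and the Col25a1/Kirrel3 sub-group 21.04%, 24.01%, 26.1% and 26.8%. The Chrm3/L3mbtl4 sub-group was the least even, at 9.93%, 18.4%, 14.5% and 13.5%, with WT libraries at both ends. Slc17a6 was present in all (227 to 608 CPM over the 16 combinations of sub-group and library), and was higher in repeat 2 in each sub-group of both genotypes. Cartpt varied with both library and sub-group. It was at 580 to 633 CPM in the sub-groups of WT repeat 2 and 133 to 174 CPM in those of WT repeat 1, and in TRα1+m at 75.6 to 197 CPM in repeat 1 and 158 to 373 CPM in repeat 2, highest in the Zmat4/Fign sub-group of both mutant libraries. Nts was concentrated in the Col25a1/Kirrel3 sub-group, at 158, 494, 224 and 702 CPM, against 10.96 to 129 CPM in the other sub-groups.

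WT Grm8 was concentrated in the Gm48228/Tafa2 and Col25a1/Kirrel3 sub-groups. It stood at 376 and 489 CPM in WT and 125 and 129 CPM in TRα1+m nuclei of the Gm48228/Tafa2 sub-group, a log2 ratio of -1.76. In the Col25a1/Kirrel3 sub-group it was at 353 and 355 CPM in WT and 16.8 and 21.4 CPM in TRα1+m, a log2 ratio of -4.14. The Zmat4/Fign sub-group held 40.5, 53.5, 28.4 and 24.1 CPM and the Chrm3/L3mbtl4 sub-group 70.2, 97.2, 45.9 and 35.3 CPM. Both mutant libraries were thus below both WT libraries in 4 of 4 sub-groups, with the widest gap in the Col25a1/Kirrel3 nuclei. That gap rested on 127 and 219 UMIs in WT and 6 and 10 UMIs in TRα1+m. Oligodendrocytes held 46.3 and 43.1 CPM in the WT and 73.5 and 65.7 CPM in the TRα1+m libraries. The mutant level lay below theirs in every sub-group except Gm48228/Tafa2. In the Zmat4/Fign sub-group (24, 37, 13 and 11 UMIs) the WT level was also near theirs, so its gap lay at the glial level. The differences between sub-groups were not tested.

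**Figure D5:**
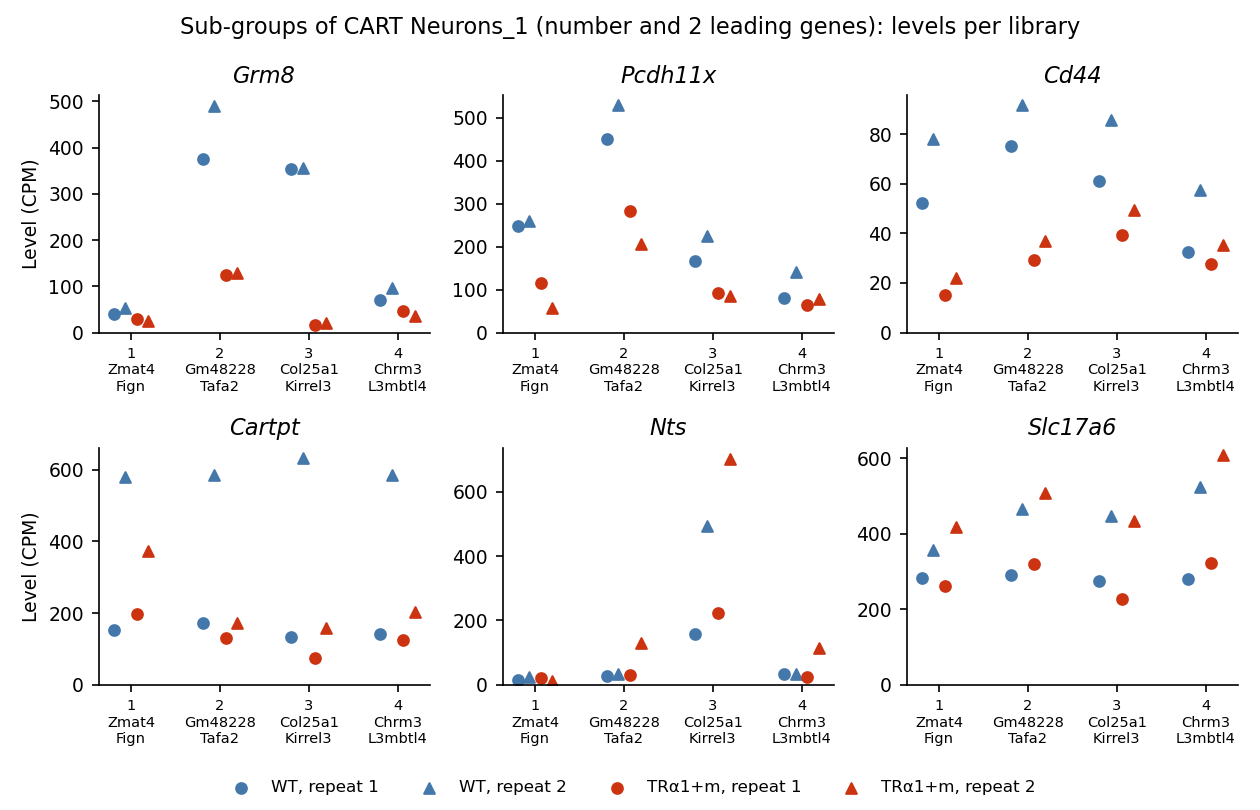
CPM (linear axes) of Grm8, Pcdh11x, Cd44, Cartpt, Nts and Slc17a6 in the 4 sub-groups of CART_1 neurons, 1 point per library coloured by genotype and shaped by repeat. Grm8 falls into separate genotype ranges in every sub-group and is furthest apart in the Col25a1/Kirrel3 sub-group (353 and 355 against 16.8 and 21.4 CPM), where Nts is also highest.

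Other genes of the genotype comparison followed their own distribution over the sub-groups. Pcdh11x was highest in the Gm48228/Tafa2 sub-group (451 and 529 CPM in WT, 283 and 207 CPM in TRα1+m) and lower in both mutant libraries in each sub-group. Vipr2 was at 41.7 and 40.5 CPM in WT Col25a1/Kirrel3 nuclei and 2.80 and 19.3 CPM in mutant ones, but in the Zmat4/Fign sub-group it was near the same level in both genotypes (11.8, 7.23, 8.75 and 6.58 CPM). Pcdh15 was at 5620 and 6080 CPM in WT and 3397 and 3856 CPM in TRα1+m Gm48228/Tafa2 nuclei, whereas in the Chrm3/L3mbtl4 sub-group the 4 libraries held 2355 to 2419 CPM. Cd44 was lower in both mutant libraries in 3 sub-groups, and its genotypes overlapped in the Chrm3/L3mbtl4 sub-group (32.4 and 57.4 against 27.5 and 35.3 CPM). Arhgap22 was at 0 to 11.7 CPM in every mutant sub-group. In WT it was at 13.9 to 42.0 CPM outside the Chrm3/L3mbtl4 sub-group. Within that sub-group it was at 0 and 28.7 CPM in WT repeats 1 and 2, so WT repeat 1 was no higher than the mutant libraries.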

How the data were processed

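The authors aligned the single-nucleus reads to mm10 with Cell Ranger 5.0.1 and clustered and annotated the nuclei with Seurat. They deposited raw UMI counts per gene and nucleus for each library and a table of annotated nuclei, from which membership was taken. Doublets were treated only as the deposited annotation left them. Counts were summed per library over the CART_1 nuclei, and over the other Neurons_1 nuclei, and tested in R 4.3.3 with edgeR 4.0.16 (quasi-likelihood, TMM, filterByExpr, Benjamini-Hochberg over all genes tested, threshold 0.05). CPM are per library sum, and ratios to other neurons used a pseudocount of 1 CPM. DESeq2 1.42.0, other normalizations, no filter, equal numbers of nuclei, left-out libraries and the repeat as a block were the alternatives. The repeat numbers pair the libraries, since the study's methods describe 2 independent repeats, and the repeat differences of both genotypes correlated across 11555 genes (r = 0.517). Sub-groups came from 2000 variable genes, 20 components and Leiden clustering (igraph 0.11.9, resolution 0.5), centred per library. Named genes were the label's marker, the 20 leading genes, all called genes, the 10 smallest p in each direction, 5 each for the repeat, the study's neuronal genes, and called or abundant members of the lists. Members, lists and rules were chosen with earlier results of these data known. Positions are GENCODE vM21 (GRCm38). Some genes are not reported here.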

Additional observations from a re-analysis of the deposited data

Results flagged for a closer look

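The genotype effect on 10 genes differed between CART_1 neurons and the other Neurons_1 nuclei by the test of that difference itself, and these are the 10 with the smallest p among 39 called by edgeR. As differences of log2 fold changes (TRα1+m over WT in CART_1 minus the same in the other neurons), they were -2.145 for Grm8, -1.018 for Pcdh11x, -0.5197 for Pcdh15, -0.5562 for Gm15398, -0.6059 for Rgs7bp, 0.8673 for Spon1, 0.6294 for Erbb4, 0.8008 for Ghr, 0.5987 for Prr16 and -0.606 for Cartpt. Gm15398 is a noncoding gene on the strand opposite to Pcdh15 and lies inside its span on chromosome 10 (GRCm38, 73201399 to 73327175). Erbb4, the neuregulin receptor, was at 116, 122, 190 and 160 CPM in WT repeats 1 and 2 and TRα1+m repeats 1 and 2, and averaged 1513 CPM in WT and 1419 CPM in TRα1+m other neurons. Ghr, the growth hormone receptor, was at 31.2, 45.2, 78.4 and 60.3 CPM, against 244 and 245 CPM on average in the other neurons. Both were low in CART_1 neurons, with both mutant libraries above both WT libraries. For 6 of the 10 genes the adjusted p by edgeR rose above 0.05 in at least 1 alternative, with the direction kept. For Cartpt it was 0.394 without WT replicate 2, 0.0521 without TRα1+m replicate 2 and 0.311 against GABA neurons alone. For Ghr it was 0.158 without WT replicate 1 and 0.368 without TRα1+m replicate 1. Without TRα1+m replicate 1 it was also 0.0729 for Gm15398 and 0.302 for Rgs7bp. It was 0.109 for Spon1 without TRα1+m replicate 2 and 0.463 for Prr16 without WT replicate 2.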

How the results depend on the processing

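The count of genes called between genotypes was 1 (Grm8) with other size factors, DESeq2, the bias-adjusted fit and equal numbers of nuclei. It was 17 without the filter on low counts (1 higher, 16 lower), 45 with the replicate block, 2 with the replicate block in DESeq2 and 46 with the replicate block in the bias-adjusted fit, the last 2 chosen after seeing the data. It ranged from 0 to 1 when a library was left out. Grm8 ranged from -2.26 to -2.06 in log2 fold change when a library was left out, and its adjusted p rose above 0.05 without TRα1+m replicate 1 (0.176 by edgeR). Cartpt ranged from -1.73 to 0.15, and turned positive without WT replicate 2. The share of CART_1 among Neurons_1 ranged from -0.467 to 0.0393 in log2 fold change, positive without TRα1+m replicate 1. The interaction gave 19 genes against GABA neurons, 62 with the replicate block, and 22 (without WT replicate 2) to 33 when a library was left out, 24 without TRα1+m replicate 2 and 26 without TRα1+m replicate 1. The repeat gave 160 genes by DESeq2 against 1409 by edgeR. Mean shares of nuclei with a Cartpt UMI went from 65.2% to 37.2% in WT and from 45.1% to 23.2% in TRα1+m after thinning, and to 38.6% and 18.8% for 2 or more UMIs. Those with a Grm8 UMI went from 40.0% to 24.0% and from 14.2% to 6.55% after thinning, and to 23.8% and 5.41% for 2 or more UMIs. A finer resolution, chosen after seeing the data, gave 7 sub-groups, 6 of which had Grm8 lower in both mutant libraries. The causes of these changes were not tested. Some genes with few UMIs in every library, such as Hr, were left out of the main genotype test by the filter on low counts.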

Other observations

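Htr2c and Adcyap1, neither of them called between genotypes, were unevenly spread over the sub-groups of CART_1 neurons. Htr2c, the serotonin 2C receptor that was low in CART_1 neurons as a whole, was concentrated in the Zmat4/Fign sub-group, at 297, 354, 376 and 383.7 CPM in WT repeats 1 and 2 and TRα1+m repeats 1 and 2 against 79.7, 39.8, 72.1 and 63.2 CPM in the other CART_1 nuclei. Adcyap1 was likewise highest in that sub-group, at 226, 568, 230 and 691 CPM, and was at 104, 176, 87.9 and 207 CPM in the Gm48228/Tafa2 sub-group. These are descriptions of clusters built from the same nuclei, with no test. Kit, a receptor tyrosine kinase, averaged 73.9 CPM in CART_1 neurons, the highest of the 20 sub-clusters, ahead of oligodendrocyte precursors at 37.4 CPM. It was chosen after its values were seen.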
